A study of Mus musculus with 6 samples.

Results

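The 6 genes described here carry the signals by which bone-forming and stromal cells control osteoclasts, the cells that resorb bone: the ligand RANKL (Tnfsf11), its soluble decoy osteoprotegerin (Tnfrsf11b), the cytokines Csf1 and Il34, the hormone receptor Pth1r and the hormone Pthlh. They were taken by symbol from the 38561 Ensembl gene IDs that were counted, and each symbol matched 1 ID. RNA was sequenced from 6 libraries in 3 groups of 2, all from mice of the strain NG2-Cre;p53flox/flox on a mixed background, in which Cre is driven by the promoter of the pericyte gene Cspg4 (NG2) and Trp53 is floxed. The first group was normal perivascular cells that an NG2 antibody had sorted from skeletal muscle (NG2 cells). These cells carried the same alleles as the tumours, and deletion of Trp53 was not tested in any group. Osteosarcomas formed the second group: replicate 1 grew in the right tibia (the tibial tumour) and replicate 2 in the lumbar spine (the spinal tumour). Subcutaneous soft tissue sarcomas formed the third. Ages and treatments were not given in the labels, nor was it said whether the libraries came from separate animals, so p-values refer to the spread among these 6 libraries, which may be technical.

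Osteoclasts arise from monocytes and macrophages that receive a survival signal through the receptor CSF1R and a differentiation signal through the receptor RANK. CSF1 and interleukin-34 both bind CSF1R. RANKL on osteoblast-lineage and stromal cells, and on activated T cells, binds RANK, and osteoprotegerin traps RANKL before it can do so. Parathyroid hormone and the related peptide PTHrP, the product of Pthlh, act through PTH1R on osteoblast-lineage cells, where they are known to increase RANKL and decrease osteoprotegerin.

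Between 27693585 and 58126832 reads per library were counted on genes, and 19.5% to 33.2% of reads overlapped no annotated gene. All 13 pericyte and mural markers were above 0 in all 6 libraries, with sums of 1244 and 1898 CPM in NG2 cells that lay within the 708 to 2105 CPM of the tumours, and Cspg4 was detected at 38.6 and 30.6 CPM in NG2 cells (normalised read counts per 1e6 reads, scaled between libraries), and at 37.7 to 188 CPM in the 4 tumours. The NG2 cell libraries also held lymphocyte transcripts, a sum of 3242 to 6166 CPM over 14 markers with none at 0, against 57.1 to 188.6 CPM in the tumours, where the B cell gene Ms4a1 was at 0 in both osteosarcomas. All 15 osteoblast markers were above 0 in both osteosarcomas, while Sp7 and Mepe were at 0 in both soft tissue sarcomas. The 15 summed to 57696 to 72535 CPM in osteosarcoma, 6631 to 7943 CPM in soft tissue sarcoma and 213 to 214 CPM in NG2 cells. Most of the soft tissue sarcoma sum came from Col1a1 (2389 and 1779 CPM), Col1a2 (3415 and 2414 CPM) and Spp1. Alpl was at 2.18 and 1.72 CPM there and Bglap at 0.168 and 0.101 CPM, while Runx2 was at 45.4 and 57.6 CPM. Spp1 was high in both tumour types (3167 and 650 CPM in osteosarcoma, 1916 and 2161 CPM in soft tissue sarcoma). Pdpn was higher in soft tissue sarcoma (159 and 205 CPM) than in osteosarcoma (2.71 and 4.37 CPM). According to the deposited names, each group had its own flow cell lane, so lane and group cannot be told apart. In bulk samples, fewer cells of a type and less RNA per cell cannot be told apart.

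Positions are those of the mouse build GRCm38, on which 36639 of the 38561 IDs were matched to GENCODE M21. Tnfsf11 (ENSMUSG00000022015) lies on chromosome 14 at 78277445 to 78308043, Tnfrsf11b (ENSMUSG00000063727) on chromosome 15 at 54250619 to 54278484, and Csf1 (ENSMUSG00000014599) on chromosome 3 at 107741048 to 107760469. Il34 (ENSMUSG00000031750) lies on chromosome 8 at 110741829 to 110805924, Pth1r (ENSMUSG00000032492) on chromosome 9 at 110722085 to 110747145, and Pthlh (ENSMUSG00000048776) on chromosome 6 at 147252101 to 147264183. All 6 are on the minus strand. Exons of Il34 overlap those of the antisense genes Gm15894 and Gm15895, and exons of Pth1r overlap those of Myl3 on the other strand. The strand setting of the counting was not given in the sources used here, so reads of these overlaps cannot be assigned to a strand.

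RefSeq promoters (250 bases before to 50 after a transcript start, GRCm38.p6) were on hand for 4 of the 6 members, Tnfsf11, Csf1, Pth1r and Pthlh. They are shown as the start regions of genes whose levels are described further on. Tnfsf11 is at chr14:78307994-78308293, Csf1 at chr3:107760420-107760719, Pthlh at chr6:147263964-147264263, and the most upstream of 3 listed Pth1r promoters at chr9:110747096-110747395, all on the minus strand and written 5′ to 3′. Capitals mark matches, on either strand, to a TATA box (TATAAA), a RUNX motif (TGTGGT) or an AP-1 motif (TGANTCA).
Tnfsf11: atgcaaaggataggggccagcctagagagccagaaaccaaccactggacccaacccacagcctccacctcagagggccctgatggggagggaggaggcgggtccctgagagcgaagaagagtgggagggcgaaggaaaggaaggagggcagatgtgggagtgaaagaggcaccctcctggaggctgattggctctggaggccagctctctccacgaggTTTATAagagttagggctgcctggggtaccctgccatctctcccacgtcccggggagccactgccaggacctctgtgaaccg
Csf1: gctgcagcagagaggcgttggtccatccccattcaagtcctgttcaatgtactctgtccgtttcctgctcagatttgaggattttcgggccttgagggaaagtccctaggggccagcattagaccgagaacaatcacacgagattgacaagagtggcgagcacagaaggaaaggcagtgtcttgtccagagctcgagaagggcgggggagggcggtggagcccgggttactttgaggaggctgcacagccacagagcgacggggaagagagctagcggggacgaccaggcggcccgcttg
Pth1r: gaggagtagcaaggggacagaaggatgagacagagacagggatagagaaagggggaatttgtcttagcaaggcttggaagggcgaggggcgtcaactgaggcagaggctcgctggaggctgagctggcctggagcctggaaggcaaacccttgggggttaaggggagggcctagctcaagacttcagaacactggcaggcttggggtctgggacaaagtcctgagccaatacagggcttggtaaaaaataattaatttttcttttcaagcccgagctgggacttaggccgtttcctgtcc
Pthlh: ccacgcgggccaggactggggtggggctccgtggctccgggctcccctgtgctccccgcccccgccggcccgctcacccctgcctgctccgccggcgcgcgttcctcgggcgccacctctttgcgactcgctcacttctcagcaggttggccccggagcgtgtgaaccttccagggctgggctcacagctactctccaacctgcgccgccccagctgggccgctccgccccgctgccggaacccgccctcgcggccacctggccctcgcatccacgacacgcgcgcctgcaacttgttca
The Tnfsf11 window held the only match, the letters TTTATA, which are TATAAA read on the opposite strand. Their first base is 32 bases before the start, and 13.6% of all 32851 promoters of this length hold a TATA box match. On the printed strand the same place reads TATAAG, which was not searched for, so no strand is assigned to this element. No RUNX or AP-1 letters were found in the 4 windows shown or in the other 2 Pth1r windows, and 16.8% and 7.81% of all promoters hold one. GC content was 61.7% for Tnfsf11, 58.7% for Csf1, 54.3% for this Pth1r window and 74.0% for Pthlh. The counts are per gene and do not say from which of its promoters Pth1r was transcribed.

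Each kind of sample had its own combination of the 6 genes. Osteosarcomas had high Pth1r, high Csf1 and the highest Tnfsf11, and almost no Pthlh. Soft tissue sarcomas had high Il34, Pthlh and Csf1 and very little Pth1r. NG2 cells were low in every member, with 12.5 CPM of Il34 and 14.1 CPM of Csf1 as their highest group means. A gene was called, and is said to have risen or fallen, where its edgeR quasi-likelihood p, adjusted by Benjamini-Hochberg over all 19024 tested genes, was under 0.05. All 6 members passed the filter on low counts.

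**Figure D1:**
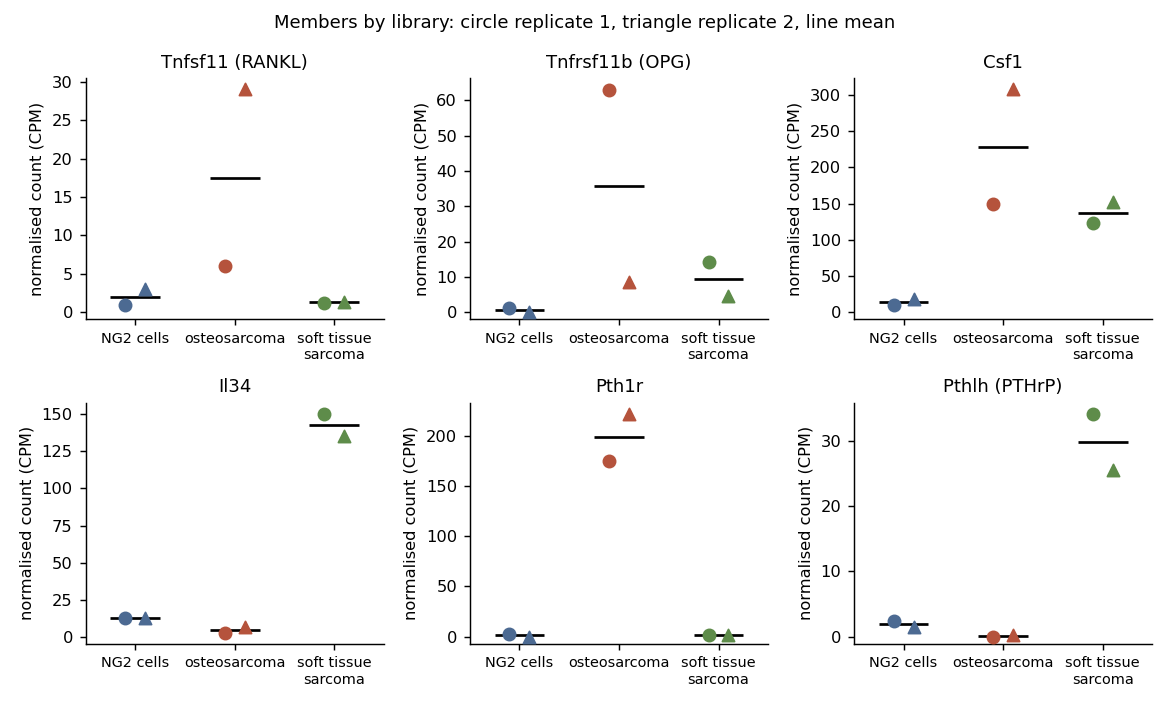
Normalised read counts (CPM, linear axis) of the 6 members in each library, with circles for replicate 1, triangles for replicate 2 and a line at the mean of each group. Pth1r is high in osteosarcoma alone (175 and 222 CPM), Il34 (150 and 136 CPM) and Pthlh (34.1 and 25.4 CPM) are high in soft tissue sarcoma alone, Csf1 is high in both tumour types, and the replicates of osteosarcoma differ in Tnfsf11 and Tnfrsf11b.

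Against NG2 cells, 2 of the 6 members rose in osteosarcoma, Csf1 and Pth1r, and none fell, where 10.5% of all tested genes rose and 11% fell (21.5% were called). Of the same 6 members 2 rose in soft tissue sarcoma, Csf1 and Il34, and none fell, where 9.89% of all tested genes rose and 9.4% fell (19.3% were called). The median log2 fold change of the members was 3.57 in osteosarcoma and 3.40 in soft tissue sarcoma, and that of all tested genes was 0.04 and 0.00. Between the tumour types no member was called by edgeR, where 0.142% of all genes were (0.0841% higher and 0.0578% lower in soft tissue sarcoma). At an unadjusted p under 0.05 there were 4 members, Tnfsf11, Il34, Pth1r and Pthlh, beside 3022 of all 19024 tested genes. The same 4 passed the adjusted threshold with DESeq2, beside 1916 of all tested genes. The libraries of the groups did not overlap for 6 members in osteosarcoma against NG2 cells, 4 in soft tissue sarcoma against NG2 cells and 4 between the tumour types, against 65.1%, 70.4% and 50.3% of all tested genes. Both tumour comparisons share the NG2 cell libraries.

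**Figure D2:**
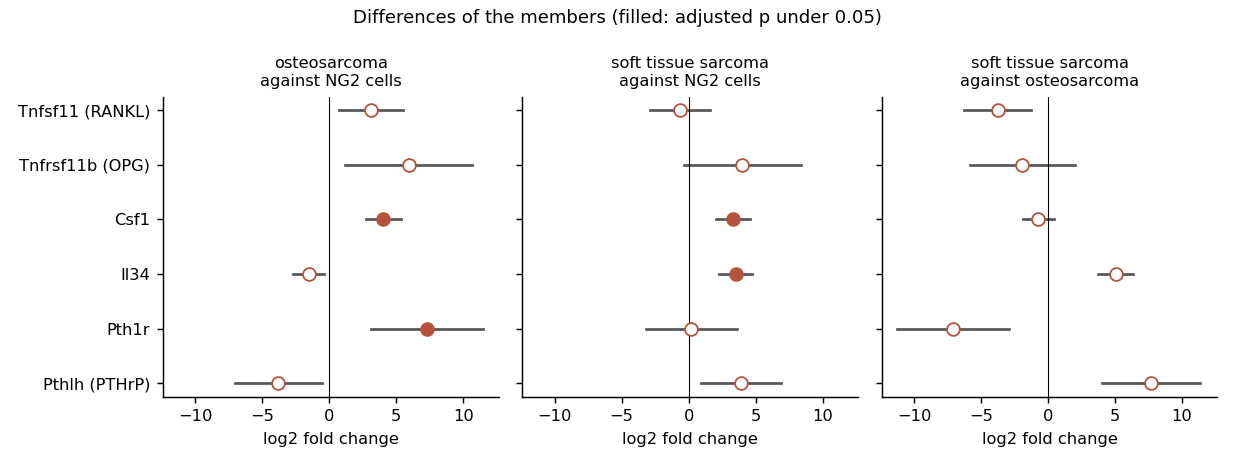
Log2 fold changes of the members in the 3 comparisons (points) with 95% intervals (lines), filled where the adjusted p was under 0.05. The filled points are Csf1 and Pth1r in osteosarcoma and Csf1 and Il34 in soft tissue sarcoma, and the widest intervals belong to genes with a library at 0 or very unequal replicates.

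Tnfsf11 encodes RANKL, the ligand without which osteoclasts do not form. The CPM were 0.914 and 3.09 in the NG2 cells, 5.99 and 29.0 in osteosarcoma replicates 1 and 2, and 1.22 and 1.35 in the soft tissue sarcomas. Both osteosarcomas lay above all other libraries, the spinal tumour 4.84-fold above the tibial one, while NG2 cells and soft tissue sarcoma overlapped. The difference between osteosarcoma and NG2 cells, a log2 fold change of 3.12 ± 0.99 (SE, n = 2 per group), did not pass (edgeR adjusted p = 0.0706). It passed when osteosarcoma replicate 1 was left out (edgeR adjusted p = 0.0355) and with DESeq2 (adjusted p = 0.00592), and without replicate 2 the log2 fold change was 1.58. Soft tissue sarcoma differed from osteosarcoma by a log2 fold change of -3.76 ± 1.02 (95% interval -6.26 to -1.27, edgeR adjusted p = 0.181), and from NG2 cells by -0.64 ± 0.93 (edgeR adjusted p = 0.649).

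The order of group means of Tnfsf11 was osteosarcoma, NG2 cells, soft tissue sarcoma, at 17.5 ± 16.3, 2.00 ± 1.54 and 1.29 ± 0.087 CPM (SD, n = 2), and no neighbours in it differed by the adjusted test. T cells also make RANKL, and T cell genes were present in NG2 cells: Cd3e had a mean of 33.9 CPM there, 0.0841 CPM in osteosarcoma and 0.899 CPM in soft tissue sarcoma. The part of these cells in the NG2 cell level of Tnfsf11 was not tested.

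Tnfrsf11b encodes osteoprotegerin, the decoy that keeps RANKL from RANK. Its level was 1.19 and 0 CPM in the NG2 cell libraries, 63.1 and 8.68 CPM in the tibial and spinal osteosarcoma, and 14.1 and 4.68 CPM in the soft tissue sarcomas. All 4 tumour libraries lay above both NG2 cell libraries, and the tumour types overlapped. The count of 0 in NG2 cell replicate 2 allows up to 0.0688 CPM, the level of 3 counts. Neither tumour type was called against NG2 cells, at log2 fold changes of 5.93 ± 1.95 (edgeR adjusted p = 0.0768) and 4.0 ± 1.79 (edgeR adjusted p = 0.162). The osteosarcoma difference passed in 3 of the 10 alternatives that gave a value, DESeq2 among them (adjusted p = 0.0341), and the other in none. The first was 3.82 without osteosarcoma replicate 1, 6.75 without osteosarcoma replicate 2 and 4.91 without NG2 cell replicate 2. The second was 2.98 without NG2 cell replicate 2 and 2.99 without soft tissue sarcoma replicate 1. Between the tumour types the log2 difference was -1.93 ± 1.61 (95% interval -5.85 to 2.00, edgeR adjusted p = 0.622), and without osteosarcoma replicate 1 it was 0.13. Group means ran from 35.9 ± 38.5 CPM in osteosarcoma through 9.41 ± 6.69 CPM in soft tissue sarcoma to 0.596 ± 0.842 CPM in NG2 cells (SD, n = 2), and no neighbours differed by the adjusted test.

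The ligand and its decoy were compared within each library per exon length (RPKM, the CPM divided by the exon length in kilobases). In the tibial osteosarcoma Tnfrsf11b was at 22.4 RPKM and Tnfsf11 at 2.68 RPKM, a decoy to ligand ratio of 8.36. In the spinal osteosarcoma the order turned, with Tnfsf11 at 13.0 RPKM and Tnfrsf11b at 3.08 RPKM, a ligand to decoy ratio of 4.21. Both soft tissue sarcomas had more decoy than ligand, with ligand to decoy ratios of 0.109 and 0.363. In NG2 cells the ratio was 0.967 in replicate 1 and at least 56.7 in replicate 2, where the decoy had 0 counts and 3 counts were put in its place.

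The mean log2 ratio of ligand to decoy was -0.49 ± 3.63 in osteosarcoma, -2.32 ± 1.23 in soft tissue sarcoma and 4.19 ± 5.98 in NG2 cells (SD, n = 2, with 0.5 added to each count). The NG2 cell mean and the differences from it depend on the count put in place of the 0 and are no bounds. The spread within osteosarcoma exceeded the distance between the tumour types, a log2 difference of -1.82 for soft tissue sarcoma minus osteosarcoma (exact permutation test, two-sided p = 0.667), which became 0.74 without osteosarcoma replicate 2. Soft tissue sarcoma minus NG2 cells was -6.51 (exact permutation p = 0.333, the smallest that 2 against 2 libraries can give). It was -5.22 with 3 counts in place of the 0, -10.7 without NG2 cell replicate 1 and -2.28 without NG2 cell replicate 2. Osteosarcoma minus NG2 cells was -4.68 (exact permutation p = 0.667), -3.38 with 3 counts in place of the 0, -8.91 without NG2 cell replicate 1 and -0.45 without NG2 cell replicate 2. Leaving out osteosarcoma replicate 1 or 2 gave -2.11 and -7.25.

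**Figure D3:**
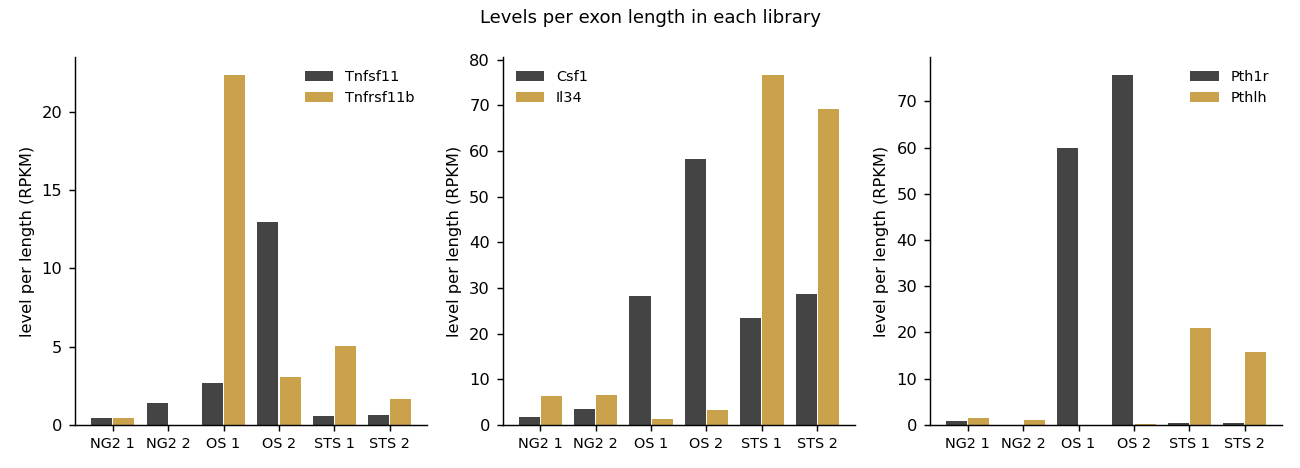
Levels per exon length (RPKM, bars from 0) in each library for Tnfsf11 beside Tnfrsf11b, Csf1 beside Il34 and Pth1r beside Pthlh, with OS for osteosarcoma and STS for soft tissue sarcoma. The ligand bar is lower than the decoy bar in osteosarcoma replicate 1 (2.68 against 22.4 RPKM) and higher in replicate 2 (13.0 against 3.08 RPKM), Csf1 exceeds Il34 in osteosarcoma only, and no library is high in both Pth1r and Pthlh.

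The osteosarcomas also differed in transcripts of osteoclasts themselves. The 14 osteoclast markers summed to 1306 CPM in the tibial and 22821 CPM in the spinal tumour, 17.5-fold apart, against 501 to 578 CPM in NG2 cells and 765 to 958 CPM in soft tissue sarcoma. Acp5, the acid phosphatase of osteoclasts, had 395 and 7465 CPM, and Ctsk, their collagen-cleaving protease, 276 and 6018 CPM. Calcr, the calcitonin receptor of osteoclasts, had 0.474 and 9.07 CPM in the same order. None of the 14 markers was at 0 in any tumour library, and Ocstamp and Slc9b2 were at 0 in NG2 cell replicate 2.

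The tumour with the more osteoclast RNA was therefore also the one with more Tnfsf11 and less Tnfrsf11b, each seen in 1 library. The 15 osteoblast markers summed to 72535 CPM in the tibial and 57696 CPM in the spinal tumour, mostly from the collagen genes Col1a1 (32201 and 19599 CPM) and Col1a2 (33134 and 18091 CPM). Single markers differed in both directions: Ibsp, which encodes bone sialoprotein, had 439 and 17589 CPM, and Bglap, which encodes osteocalcin, 1235 and 37.8 CPM. Skeletal muscle fibre markers differed as well, at 12.3 CPM in the tibial and 983 CPM in the spinal tumour, with Myh1, Tnnc2 and Pvalb at 0 in the tibial one. Site and the content of osteoclasts, osteoblasts and muscle cannot be told apart with 1 tumour of each site, and their part in the levels of Tnfsf11 and Tnfrsf11b was not tested.

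**Figure D4:**
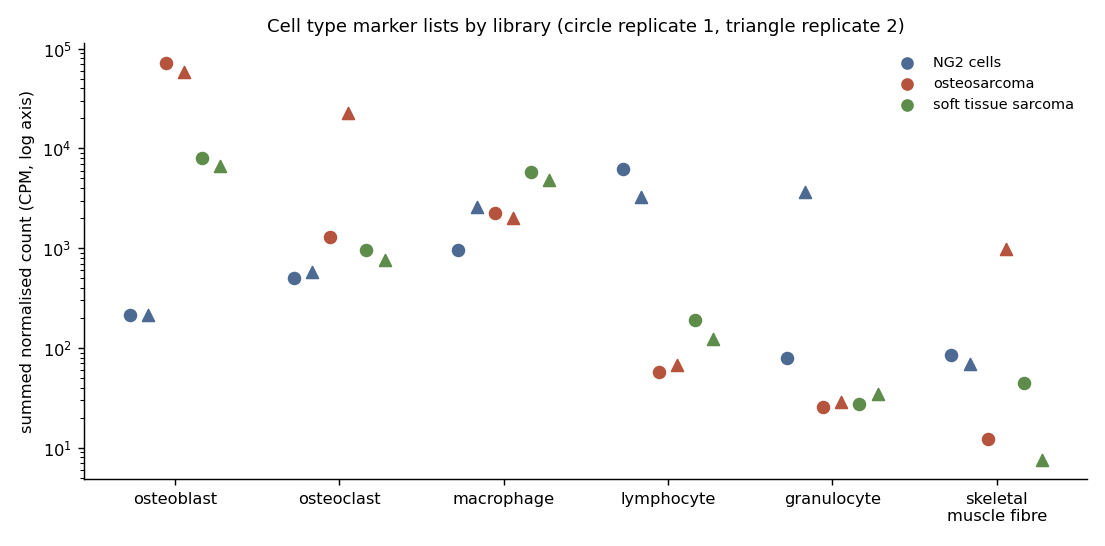
Summed normalised counts (CPM, log axis) of 6 cell type marker lists in each library, coloured by group, with circles for replicate 1 and triangles for replicate 2. The osteoclast sum of osteosarcoma replicate 2 (22821 CPM) stands above all other libraries, the osteoblast sums of both osteosarcomas are highest, and lymphocyte sums are highest in NG2 cells.

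Csf1, the main growth and survival factor of the macrophage lineage, was high in both tumour types. In CPM it was at 9.48 and 18.7 in the sorted cells, at 149 and 307 in the osteosarcomas, and at 123 and 152 in the soft tissue sarcomas. Every tumour library lay above both NG2 cell libraries, and the tumour types overlapped. Csf1 rose 16.2-fold in osteosarcoma (log2 fold change 4.02 ± 0.54, SE, n = 2 per group, edgeR adjusted p = 0.00917). This call was kept under all 11 alternatives, with adjusted p of at most 0.0447, at log2 fold changes from 3.40 without osteosarcoma replicate 2 to 4.59 without NG2 cell replicate 2. In soft tissue sarcoma Csf1 rose 9.74-fold (log2 fold change 3.28 ± 0.52, edgeR adjusted p = 0.0151). That call was lost without NG2 cell replicate 1 or 2 (edgeR adjusted p = 0.0643 and 0.0503) and without soft tissue sarcoma replicate 1 or 2 (0.0868 and 0.095), with log2 fold changes between 2.89 and 3.86.

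The order of the group means of Csf1 was osteosarcoma (228 ± 112 CPM), soft tissue sarcoma (138 ± 19.9 CPM) and NG2 cells (14.1 ± 6.54 CPM; SD, n = 2). The tumour types, the upper neighbours in this order, did not differ by the test, at a log2 difference of -0.73 for soft tissue sarcoma minus osteosarcoma (95% interval -1.89 to 0.43, edgeR adjusted p = 0.511).

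Il34, the second ligand of CSF1R, stood at 150 and 136 CPM in the soft tissue sarcomas, against 12.4 and 12.6 CPM in the NG2 cell libraries and 2.41 and 6.26 CPM in the osteosarcomas. No groups overlapped, and both osteosarcomas lay below the NG2 cells. Il34 rose 11.4-fold in soft tissue sarcoma against NG2 cells (log2 fold change 3.51 ± 0.50, SE, n = 2 per group, edgeR adjusted p = 0.0129). The call was lost without either NG2 cell library (edgeR adjusted p = 0.0644 and 0.0658) or either soft tissue sarcoma library (0.0868 and 0.0886), at log2 fold changes of 3.44 to 3.55. In osteosarcoma its log2 fold change was -1.54 ± 0.47 (edgeR adjusted p = 0.0641). This difference passed in 3 of 11 alternatives, DESeq2 among them (adjusted p = 0.00909), and was -2.38 without osteosarcoma replicate 2.

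Soft tissue sarcoma exceeded osteosarcoma in Il34 by a log2 fold change of 5.05 ± 0.54 (95% interval 3.74 to 6.37), just short of the threshold by edgeR (adjusted p = 0.052). It passed with DESeq2 size factors in edgeR (adjusted p = 0.0494) and in 4 other alternatives of 11. Group means were 143 ± 10.4, 12.5 ± 0.136 and 4.33 ± 2.72 CPM in soft tissue sarcoma, NG2 cells and osteosarcoma (SD, n = 2), of which the lower neighbours did not differ by the adjusted test. The antisense genes that overlap Il34 had 328 and 112 counts (Gm15894) and 120 and 91 counts (Gm15895) in soft tissue sarcoma, where Il34 had 8962 and 4025 counts, and at most 15 counts in any other library.

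Compared per exon length, the CSF1R ligands had opposite proportions in the tumour types, a comparison chosen after the values were seen. Csf1 exceeded Il34 by 23.0-fold and 18.2-fold in the osteosarcomas (28.3 against 1.23 and 58.2 against 3.19 RPKM). Il34 exceeded Csf1 by 3.28-fold and 2.41-fold in the soft tissue sarcomas (76.8 against 23.4 and 69.2 against 28.7 RPKM), and by 3.54-fold and 1.82-fold in NG2 cells, where both were at most 6.45 RPKM.

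Pth1r encodes the receptor for parathyroid hormone and PTHrP on osteoblast-lineage cells. The osteosarcomas had 175 and 222 CPM, while the NG2 cell libraries had 2.55 and 0 CPM and the soft tissue sarcomas 1.41 and 1.45 CPM. Both osteosarcomas were far above every other library, and the soft tissue sarcomas lay between the NG2 cell libraries. Pth1r rose 157-fold in osteosarcoma against NG2 cells (log2 fold change 7.30 ± 1.72, SE, n = 2 per group, edgeR adjusted p = 0.0346). Without NG2 cell replicate 2 the log2 fold change was 6.28 (edgeR adjusted p = 0.0239). The size of the fold rests on the 92 counts of NG2 cell replicate 1, since replicate 2 had 0 of 44622315 counts, which allows up to 0.0688 CPM. The call was lost without soft tissue sarcoma replicate 1 or 2 (edgeR adjusted p = 0.0792 and 0.0785), which enter through the shared spread, in a fit of the 2 groups alone (0.0757) and with the replicate number as a block (0.0535), at log2 fold changes of 7.24 to 7.89.

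Between the tumour types Pth1r differed by a log2 fold change of -7.11 ± 1.70 for soft tissue sarcoma minus osteosarcoma (95% interval -11.28 to -2.95, edgeR adjusted p = 0.149). Against NG2 cells the log2 difference of soft tissue sarcoma was 0.18 ± 1.39 (95% interval -3.21 to 3.57, edgeR adjusted p = 0.939). Group means were 198 ± 32.9, 1.43 ± 0.028 and 1.27 ± 1.80 CPM in osteosarcoma, soft tissue sarcoma and NG2 cells (SD, n = 2). Myl3, which overlaps Pth1r on the other strand, had 216 and 57 counts in osteosarcoma, where Pth1r had 9239 and 6234.

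Pthlh encodes PTHrP, the ligand of PTH1R that some tumours secrete. The soft tissue sarcomas had 34.1 and 25.4 CPM, the NG2 cell libraries 2.44 and 1.54 CPM, and the osteosarcomas 0 and 0.320 CPM. No groups overlapped, and the osteosarcomas held 9 counts between them, all in replicate 2. The 0 of osteosarcoma replicate 1 allows up to 0.0569 CPM. Neither difference from NG2 cells passed, at log2 fold changes of 3.90 ± 1.21 in soft tissue sarcoma (edgeR adjusted p = 0.0708) and -3.79 ± 1.32 in osteosarcoma (edgeR adjusted p = 0.0875). The first passed in 5 of 11 alternatives and the second in 1 of the 10 that gave a value. With DESeq2 both passed (adjusted p = 0.00231 and 0.00515). Without osteosarcoma replicate 1 or 2 the first was 3.87 and 3.91.

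Soft tissue sarcoma exceeded osteosarcoma in Pthlh by a log2 fold change of 7.70 ± 1.5 (95% interval 4.04 to 11.36, edgeR adjusted p = 0.109; DESeq2 adjusted p = 8.15e-09). The order of group means was soft tissue sarcoma (29.8 ± 6.12 CPM), NG2 cells (1.99 ± 0.638 CPM) and osteosarcoma (0.160 ± 0.226 CPM; SD, n = 2). Ligand and receptor were thus high in different tumours: the osteosarcomas had 59.9 and 75.8 RPKM of Pth1r with at most 0.198 RPKM of Pthlh, and the soft tissue sarcomas 21.1 and 15.7 RPKM of Pthlh with at most 0.495 RPKM of Pth1r. Pth, the gene of parathyroid hormone itself, had 0 counts in every library.

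The receptors on the other side of these signals were present in every group, but Ptprz1 in soft tissue sarcoma in replicate 1 alone (135 and 0 counts). Of the 5, 1 rose in each tumour type, where 10.5% of all tested genes rose in osteosarcoma and 9.89% in soft tissue sarcoma. Csf1r, the receptor of CSF1 and interleukin-34, was at 60.8 and 79.1 CPM in the sorted cells, at 158 and 380 CPM in the osteosarcomas and at 368 and 359 CPM in the soft tissue sarcomas. It rose 3.84-fold in osteosarcoma (edgeR adjusted p = 0.0343) and 5.20-fold in soft tissue sarcoma (edgeR adjusted p = 0.0234), and the tumour types did not differ by the test (log2 0.44 ± 0.44, edgeR adjusted p = 0.694). Both calls of Csf1r were lost without either NG2 cell library or either soft tissue sarcoma library (edgeR adjusted p from 0.0787 to 0.136 in osteosarcoma and 0.088 to 0.123 in soft tissue sarcoma). The first was also lost in a fit of the 2 groups alone (0.0776), and without osteosarcoma replicate 2 its log2 fold change was 1.17 in place of 1.94. Macrophage markers, a list of 12 that includes Csf1r, summed to 961 to 2575 CPM in NG2 cells, 2019 to 2257 CPM in osteosarcoma and 4865 to 5792 CPM in soft tissue sarcoma, with none at 0 in any library. The near sums of the osteosarcomas hide opposite differences. Only Csf1r and Cd68 (294 and 979 CPM in the tibial and spinal tumour) were higher in the spinal one. The other markers were lower there, among them C1qb (399 and 137 CPM) and Mrc1 (124 and 9.67 CPM). The part of macrophages in the level of Csf1r was not tested.

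Tnfrsf11a, which encodes RANK, ranged from 4.79 and 18.1 CPM in the sorted cells to 18.9 and 47.7 CPM in the osteosarcomas, with 22.4 and 22.5 CPM in the soft tissue sarcomas, and passed in no comparison (edgeR adjusted p of 0.175, 0.366 and 0.765). The higher osteosarcoma value was again that of the spinal tumour. Ptprz1 and Sdc1, which encode further binding partners of interleukin-34, and Lgr4, an alternative receptor for RANKL, were not called either, with adjusted p between 0.0628 for Sdc1 in osteosarcoma and 0.8 for Sdc1 between the tumour types.

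The calls of the lists were followed through the same 11 alternatives, added after the data were seen. In osteosarcoma 11 of the 33 listed genes called, receptors included, were called in every one, among them Ccl2, Il1b, Vdr, Crem and Irf8. In soft tissue sarcoma none of the 31 called was, since no gene at all was called without either soft tissue sarcoma library.

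Of 24 other secreted regulators of osteoclasts, none rose and 6 fell in osteosarcoma against NG2 cells (all tested genes: 10.5% rose, 11% fell), with a median log2 fold change of -1.06. By order of p the first were Ccl2, a monocyte chemokine (log2 -2.58 ± 0.37), the inflammatory cytokines Il1b (-6.59 ± 0.98) and Tnf (-5.61 ± 0.93), Csf2, with 0 counts in osteosarcoma and at least 33.9-fold lower (3 counts per library in place of 0), and Il33 (-2.73 ± 0.66). Of the 24, in soft tissue sarcoma, 2 rose and 5 fell (all tested genes: 9.89% rose, 9.4% fell), with a median of -1.36. They were led by falls of Sema4d (log2 -2.74 ± 0.39), Tnf (-5.03 ± 0.90) and the Wnt antagonist Sfrp1 (-5.53 ± 1.09), and rises of the Wnt ligand Wnt5a (8.76 ± 2.01) and of Ccl2 (1.42 ± 0.36). Ccl2 was the only listed pathway gene called between the tumour types, with 62.2 and 44.3 CPM in the osteosarcomas against 885 and 823 CPM in the soft tissue sarcomas (log2 4.0 ± 0.39, edgeR adjusted p = 0.0459). This call held in 4 of 11 alternatives; it was lost in the fit of the 2 groups alone, with the replicate block, and without any 1 of the libraries other than osteosarcoma replicate 2, with adjusted p from 0.0537 to 0.28 and log2 values from 3.95 to 4.28. Lymphocyte and granulocyte marker sums were lower in both tumour types than in NG2 cells. The granulocyte markers summed to 78.4 and 3645 CPM in NG2 cells and to at most 34.4 CPM in a tumour. The part of these cells in the levels of the cytokines was not tested.

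Genes that induce or shed RANKL moved in both directions. Of 10 tested genes of 12, 2 rose and 4 fell in osteosarcoma (median -0.52), and 1 rose and 2 fell in soft tissue sarcoma. Among all tested genes 10.5% rose and 11% fell in osteosarcoma, and 9.89% rose and 9.4% fell in soft tissue sarcoma. Vdr, the vitamin D receptor that induces RANKL in osteoblasts, rose 24.5-fold, from 1.77 and 4.26 to 71.5 and 77.1 CPM, and was at 13.2 and 5.93 CPM in soft tissue sarcoma. Mmp14, a membrane protease that can release RANKL, rose by a log2 fold change of 5.80 ± 0.78. Il6st, the shared signal chain of the interleukin-6 family, fell by 2.83 on the log2 scale, and Ptger4, Il6ra and Ptger2, receptors of prostaglandin E2 and interleukin-6, fell as well. Mmp14 also rose in soft tissue sarcoma (log2 4.66 ± 0.74), where Il6st and Lifr, a receptor chain of leukaemia inhibitory factor, fell, with a median of -0.42.

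Among genes of PTH and PTHrP signalling, falls outnumbered rises in both tumour types. Of 25 tested genes of 29, 2 rose and 8 fell in osteosarcoma (median log2 fold change -0.50), and 3 rose and 9 fell in soft tissue sarcoma (median -0.57). The shares of all tested genes were 10.5% higher and 11% lower in osteosarcoma, and 9.89% higher and 9.4% lower in soft tissue sarcoma. In osteosarcoma the first by p were the cAMP-responsive factors Crem (log2 -4.96 ± 0.38) and Nr4a2 (-4.16 ± 0.36), the cAMP phosphodiesterase Pde4b (-5.79 ± 0.56), the G protein regulator Rgs2 (-4.36 ± 0.59), and the adenylyl cyclase Adcy3, which rose (3.74 ± 0.51). The first in soft tissue sarcoma were falls of Crem, Nr4a2, Pde4b, the kinase Sik2 and Rgs2, with log2 values between -4.49 and -2.03. Crem was at 450 and 265 CPM in NG2 cells and at most 17.6 CPM in a tumour. Only the NG2 cells had been sorted, so sorting and the group cannot be told apart for these genes, many of which other stimuli also induce.

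Genes that carry the RANK and CSF1R signals inside osteoclast precursors, many of which lymphocytes also express, were mostly uncalled or lower. Sorting and the group cannot be told apart for these genes either, among them Fos, at 1209 and 1474 CPM in NG2 cells. Of 26 genes, 1 rose and 9 fell in osteosarcoma (median -0.91), where 10.5% of all tested genes rose and 11% fell. The falls were led by Irf8 (log2 -3.15 ± 0.32), Plcg2 (-2.39 ± 0.31), Rela (-1.75 ± 0.28), Syk (-3.40 ± 0.54) and Fos (-4.74 ± 0.78). Oscar, a costimulatory receptor of osteoclasts, was the gene that rose, at 4.32 and 137 CPM in the osteosarcomas against 0 counts in NG2 cells, at least 931-fold with 3 counts per library in place of 0. Its call (edgeR adjusted p = 0.0492) was lost in 6 of 11 alternatives, those without any 1 of the libraries other than osteosarcoma replicate 1 and the fit of the 2 groups alone. None of the 26 rose in soft tissue sarcoma and 8 fell, led by Plcg2, Fos, Syk, Irf8 and Rela (median -0.73; all tested genes: 9.89% rose, 9.4% fell). Nfatc1, the master transcription factor of osteoclasts, was highest in the spinal osteosarcoma (364 CPM, against 63.5 CPM in the tibial one), with 330 and 139 CPM in the sorted cells and 54.6 and 35.2 CPM in the soft tissue sarcomas.

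**Figure D5:**
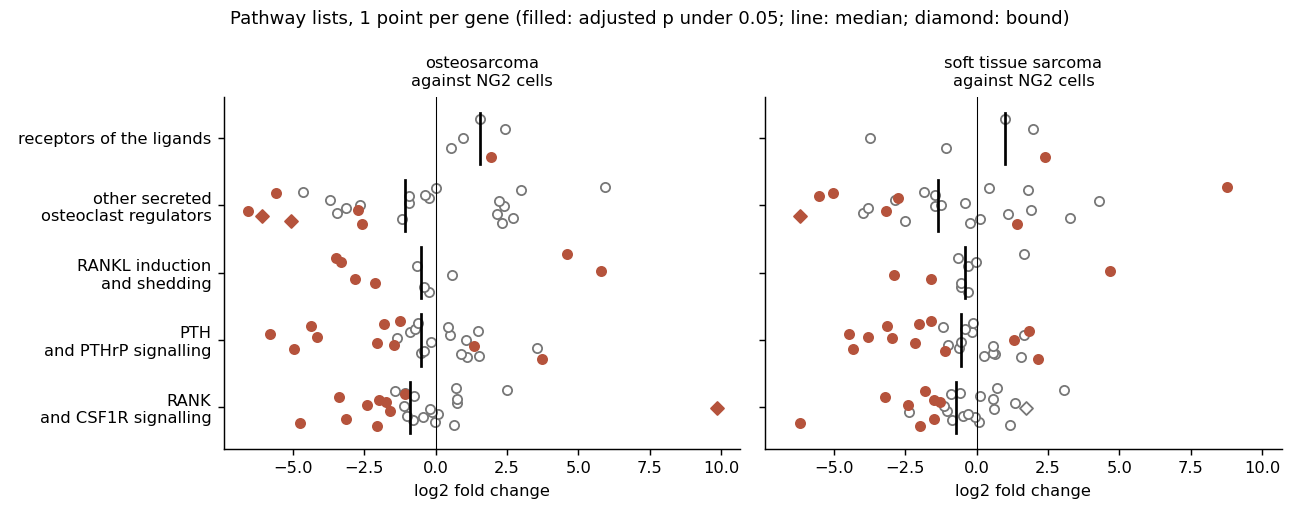
Log2 fold changes against NG2 cells of the tested genes of 5 pathway lists, 1 point per gene, filled where the adjusted p was under 0.05, with a line at each list's median and diamonds at the bound for genes with 0 counts in a group. The median of the receptors lies above 0 in both tumour types (1.54 and 0.97) and those of the other lists below 0.

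The genes whose pattern was most like that of each member were found by Pearson's r of log2 CPM over the 6 libraries, among 14919 protein-coding genes. With 3 groups that separate strongly, such values are high for many genes: between 45 (Tnfsf11) and 476 (Csf1) genes exceeded an r of 0.95. The nearest were St5, Arhgef5 and Kazn for Tnfsf11 (r of 0.993 to 0.99), Ube2t, Zfp354c and Fam160a1 for Tnfrsf11b (0.995 to 0.993), Nid2, Ndufb6 and Cd276 for Csf1 (0.99976 to 0.998), and Uqcc1, Hmgcll1 and Tubg2 for Pth1r (0.991 to 0.989). Il34 was nearest to Nbea, Sec14l1 and Gjc1 (0.991 to 0.99), and Pthlh to Gjc1, Adgrl3 and Igfbp6 (0.995 to 0.99), so that Gjc1 was named for both.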

How the data were processed

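The authors deposited raw read counts per Ensembl gene, 1 table per library, with 5 counters of unassigned reads, which were left out. The submitters' processing notes name STAR, HTSeq, DESeq2, Trim Galore, FastQC and cutadapt, and the builds GRCm38 and mm10, without versions or roles. The annotation release and strand setting were not given in the sources used here. Per the labels' protocols, about 10 ng of RNA was copied from an oligo(dT) primer and amplified in 20 PCR cycles, so amplified reads are not independent molecules and floors cover counting error only. Counts were tested with edgeR 4.0.16 in R 4.3.3 (TMM scaling, filterByExpr with min.count 10 and min.total.count 15, quasi-likelihood F tests) in 1 model of all 6 libraries, with 3 residual and 3.04 prior degrees of freedom. The 95% intervals are the log2 fold change plus or minus the SE times the matching t quantile for those degrees of freedom. The SE was derived from the test, as the absolute log2 fold change divided by the square root of F. DESeq2 1.42.0 was an alternative. Symbols, positions and exon lengths came from GENCODE M21. The test code was checked on simulated counts. Named genes were the members, the receptors, up to 5 called genes of each list in order of p, and the 3 most alike genes per member; further genes of a list were named after their values were seen. Members and lists were chosen with earlier results of these data known.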

Additional observations from a re-analysis of the deposited data

How the results depend on the processing

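The call of Csf1 in osteosarcoma held under all 11 alternatives. In the order osteosarcoma against NG2 cells, soft tissue sarcoma against NG2 cells and soft tissue sarcoma against osteosarcoma, edgeR called 4086, 3671 and 27 genes, of them 2, 2 and 0 members. With DESeq2 size factors it called 4063, 3662 and 35 genes and 2, 2 and 1 members, and with no filter 4261, 3858 and 409 genes and 4, 3 and 3 members. DESeq2 itself called 6894, 6439 and 1916 genes and 6, 3 and 4 members. Fits of the 2 groups alone called 1908, 5018 and 0 genes (the last with 3126 at an unadjusted p under 0.05) and 1, 3 and 0 members. Leaving out 1 library at a time gave 1343 to 3542, 0 to 5038 and 0 to 305 genes, and 1 to 4, 0 to 3 and 0 to 2 members; the counts of 0 genes in soft tissue sarcoma against NG2 cells came without either soft tissue sarcoma library, with 4611 and 4372 genes at an unadjusted p under 0.05. These fits assume that the lone library of a group varies like the others.

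The direction turned in 4 cases, none of them called. Leaving out 1 library gave log2 values of -1.25 to 0.49 for Tnfsf11 and -0.83 to 0.20 for Pth1r in soft tissue sarcoma against NG2 cells, each turned without NG2 cell replicate 2, and -2.94 to 0.13 for Tnfrsf11b between the tumour types, turned without osteosarcoma replicate 1. The fourth was the log2 ratio of Tnfsf11 to Tnfrsf11b between the tumour types, 0.74 without osteosarcoma replicate 2. The cause was not tested. For 6 member values, in the fits without NG2 cell replicate 1 or osteosarcoma replicate 2, a group was left with at most 3 counts and no value was taken. The highest member counts without osteosarcoma replicate 2 (4, and 2 between the tumour types) include such a call of Pthlh, and Pth1r is counted so without NG2 cell replicate 1.

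The replicate number as a block gave 2660, 2209 and 8 genes and 2, 2 and 0 members, with Pth1r lost in osteosarcoma (adjusted p = 0.0535) and Tnfrsf11b gained (0.0369). The groups share only a number: deviations of same-numbered libraries correlated at 0.049, -0.00277 and -0.0864.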
